A study of Homo sapiens with 15 samples.

Results

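The ephrin, semaphorin and Slit guidance genes are 60 of the 61544 genes counted by RNA-seq in HCC95 cells. They were chosen by symbol alone, as every ephrin (EFNA, EFNB), Eph receptor (EPHA, EPHB), semaphorin of classes 3 to 7, plexin, neuropilin, Slit and Robo gene in the table. HCC95 is an established line of human lung squamous cell carcinoma (LUSC) cells. The cells were transfected with siRNA, a short double-stranded RNA that leads to cleavage of the matching mRNA. siKLF5b targeted KLF5, siTP63b targeted TP63, siSOX2b targeted SOX2, siGRHL2a targeted GRHL2, and siNC1 was the negative control siRNA. Each of the 5 groups had 3 libraries of polyadenylated RNA, and each factor was represented by 1 siRNA in 1 cell line. The labels do not say whether the 3 libraries of a group came from separate transfections, so the p-values measure only the spread between these libraries.

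These families were first known for steering growing axons, and they also act between epithelial cells. Ephrins are anchored in the cell membrane and bind Eph receptor tyrosine kinases on the neighbouring cell. Semaphorins signal through plexins, and the secreted class 3 proteins mostly need a neuropilin as co-receptor, while the secreted Slit proteins bind Robo receptors. In epithelia the ephrin and Eph pairs are known for cell sorting and boundary formation, and semaphorins and Slits for control of cell movement and vessel growth.

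The deposited values were raw counts, which summed to between 15655495 and 34229063 per library. Levels are given as CPM, counts scaled to a common library size with TMM factors, and differences as log2FC, the log2 ratio of 2 groups in one edgeR quasi-likelihood fit of all 15 libraries. A gene was called when its Benjamini-Hochberg adjusted p, taken across the 25108 genes that passed the low-count filter, was below 0.05 and its absolute log2FC was above 0.75. Of the 60 guidance genes 55 passed the filter. SEMA3G, SLIT2, PLXNA4 and ROBO4 had at most 6, 16, 7 and 6 counts in any library and were not tested, and SEMA5B, with at most 2 counts, was at or under 3 counts in all 15 libraries.

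The libraries fell into 2 sets that stood apart, siNC1 with siKLF5b and the other 3 knockdowns together. The column names of the table parted them in this way. Even numbers made up 49.7% to 50.7% of the counts between 20 and 500 in the first set and 66.1% to 69.0% in the second. siKLF5b was therefore compared with siNC1, and siTP63b, siSOX2b and siGRHL2a with each other, so each of those 3 comparisons shows a difference between 2 knockdowns and not a change from control. A difference between siNC1 and the second set may lie with the set or the knockdown, which cannot be told apart. In RNA from a whole culture, fewer cells of a kind and less RNA per cell cannot be told apart either.

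Squamous epithelial markers were abundant, with KRT5, a basal keratin, at 8633 CPM in siNC1. Markers of the cell types in which guidance genes are best known were low or mixed. STMN2, a neuronal gene, had at most 1 count and the glial gene S100B had 0 counts in all libraries, but SYT1, a synaptic vesicle gene, was at 31.3 CPM in siNC1. The endothelial genes PECAM1 and CDH5 had at most 6 and 14 counts, while VWF was at 14.5 CPM in siNC1.

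Levels between genes were compared as CPM per kb of merged exons. SEMA3C, a secreted semaphorin, was the most abundant of the 60 guidance genes in all 5 groups, at 41.1 ± 1.15 CPM per kb (SD, n = 3) in siNC1. Next in siNC1 were the ephrin EFNB1 at 11.4 ± 0.997 and PLXNB2, a receptor of class 4 semaphorins, at 9.17 ± 0.794 CPM per kb. The Eph receptor EPHB4 at 9.05 ± 1.16 and the ephrin EFNB2 at 8.09 ± 0.482 CPM per kb followed. EFNB1 stood above PLXNB2 by more than their SDs, while PLXNB2, EPHB4 and EFNB2 lay within about 1 SD of their neighbours. In siNC1, 29 of the 60 genes were above 1 CPM per kb. Because the authors counted reads over the whole span of each gene, introns included, these levels include intronic reads.

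Each role had a leading member in siNC1 by CPM per kb. EFNA5 led the ephrin-A ligands at 5.12 ± 0.504 and EFNB1 the ephrin-B ligands at 11.4 ± 0.997. EPHA2 led the EphA receptors at 7.39 ± 0.606 and EPHB4 the EphB receptors at 9.05 ± 1.16. SEMA4B led the membrane semaphorins at 4.79 ± 0.419 and PLXNB2 the plexins at 9.17 ± 0.794. NRP1 stood at 2.24 ± 0.0281, SLIT3 at 2.06 ± 0.0619 and ROBO1 at 0.502 ± 0.0391 CPM per kb. Without length, the mean CPM over the 15 libraries was highest for EFNB2, SEMA4D and PLXNA1 in their roles, which were at 40.5 ± 2.41, 41.2 ± 2.72 and 59.2 ± 2.92 CPM in siNC1. These are levels of whole genes and depend on length, and PLXNB2 was above PLXNA1 in siNC1 on this scale too, at 66.7 ± 5.77 CPM.

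The targeted genes were examined first, as a check on the labels. KLF5 was at 123, 109 and 107 CPM in siNC1 and at 71.8, 71.8 and 73.8 CPM in siKLF5b, without overlap (log2FC -0.64, SE 0.058, edgeR adjusted p = 5.29e-10), a partial loss of its RNA. TP63 was at 363 ± 22.3 CPM in siTP63b, against 690.0 ± 38.2 in siSOX2b and 831 ± 28.3 in siGRHL2a (log2FC -0.93 and -1.19). SOX2 was at 8.97 ± 1.63 CPM in siSOX2b, against 29.5 ± 2.23 in siTP63b and 20.2 ± 1.54 in siGRHL2a. GRHL2 was lowest in siGRHL2a, at 91.3 ± 0.560 CPM, against 117 ± 2.39 in siTP63b and 100.2 ± 4.58 in siSOX2b. The difference of GRHL2 between siSOX2b and siGRHL2a was small (log2FC 0.14, edgeR adjusted p = 0.0313) and its adjusted p rose above 0.05 with upper-quartile factors, with no low-count filter, with only the 6 libraries compared or only those of its set, and without the first siSOX2b library or the first or the second siGRHL2a library (edgeR adjusted p from 0.0533 to 0.114). An exact two-sided permutation of 3 against 3 libraries gave p = 0.1 for each of these 7 contrasts, the smallest p that it allows.

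The comparison of siKLF5b with siNC1 shows how the guidance genes differed between cells given the KLF5 siRNA and cells given the control siRNA. EPHB3, an Eph receptor for ephrin-B ligands, fell, and 4 class 3 semaphorin genes that lie together on chromosome 7 rose, SEMA3A past both thresholds. Of the 55 members tested, 2 were called lower and 2 higher, 3.64% in each direction, and over all tested genes 1.37% were called lower and 1.89% higher. At an adjusted p below 0.05 whatever the fold, 10 members were lower and 5 higher (18.2% and 9.09%), beside 12.9% and 10.3% of all tested genes. The median log2FC of the members was -0.02, beside -0.01 over all tested genes, and their median absolute log2FC was 0.31, beside 0.21.

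EPHB3 was at 19.95, 19.87 and 19.96 CPM in siNC1 and at 8.78, 8.79 and 9.22 CPM in siKLF5b. The groups were far apart and the libraries within each nearly equal. Its log2FC was -1.16 (SE 0.10, edgeR adjusted p = 3.31e-10), and it was called under every alternative and with any 1 library left out. EPHB3 lies on chromosome 3 of hg38 (plus strand), between 184561785 and 184582408, and overlaps no other gene of the table. EPHB3 was also called in 2 comparisons among the other knockdowns. The other EphB receptors were not called. EPHB4, a receptor of EFNB2, had a log2FC of -0.17 (95% interval -0.32 to -0.02), EPHB2 of 0.06 (-0.12 to 0.24), EPHB1 of 0.36 (-0.02 to 0.74) and EPHB6, which lacks kinase activity, of 0.02 (-0.36 to 0.41). A gene that overlaps EPHB1 had 731% as many counts, and one on the other strand of EPHB4 37.1%, so their values are uncertain.

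The promoters of EPHB3, EFNB1 and SLIT3 are printed as examples of genes called in 2 or 3 comparisons, each with a single window in the RefSeq promoter table (GRCh38.p14, 250 bases before to 50 after the gene start). EPHA8 and NRP2 also meet this description and are not printed, EPHA8 for its few counts and NRP2 because its window lies 511 bases from the gene start of the table. This choice was made after their values were seen. Capitals mark CACCC, a core of Krüppel-like factor sites, and GGGCGG, the GC box, on either strand. ACAAT, a core of SOX sites, and AACNNGTT, the core of grainyhead sites, were searched on both strands too and were absent from these windows. Matches may overlap each other.
EPHB3 promoter, chr3:184561535-184561834, plus strand: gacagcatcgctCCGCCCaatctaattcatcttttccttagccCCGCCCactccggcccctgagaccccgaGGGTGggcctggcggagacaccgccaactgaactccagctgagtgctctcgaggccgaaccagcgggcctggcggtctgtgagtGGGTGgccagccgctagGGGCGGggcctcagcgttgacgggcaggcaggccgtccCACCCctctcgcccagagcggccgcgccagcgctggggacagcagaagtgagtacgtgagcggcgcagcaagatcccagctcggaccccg
EFNB1 promoter, chrX:68828771-68829070, plus strand: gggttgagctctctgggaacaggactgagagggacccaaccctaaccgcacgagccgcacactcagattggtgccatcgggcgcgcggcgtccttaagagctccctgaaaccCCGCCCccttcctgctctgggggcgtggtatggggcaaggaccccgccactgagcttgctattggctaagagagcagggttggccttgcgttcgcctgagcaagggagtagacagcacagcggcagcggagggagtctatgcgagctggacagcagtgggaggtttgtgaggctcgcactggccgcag
SLIT3 promoter, chr5:169301090-169301389, minus strand: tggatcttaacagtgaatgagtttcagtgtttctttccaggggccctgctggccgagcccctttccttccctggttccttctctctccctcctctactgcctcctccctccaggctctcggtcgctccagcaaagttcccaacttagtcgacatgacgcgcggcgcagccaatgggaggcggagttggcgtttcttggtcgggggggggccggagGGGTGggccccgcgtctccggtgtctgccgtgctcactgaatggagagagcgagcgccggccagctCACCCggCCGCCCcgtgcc

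The EPHB3 window held 3 CACCC and 3 GGGCGG matches, the SLIT3 window 2 and 1, and the EFNB1 window 0 and 1. Their GC contents were 69.0%, 64.7% and 63.7%. Such matches were common: over all 35116 promoter windows, 59.9% held CACCC, 45.0% GGGCGG, 27.4% ACAAT and 3.5% AACNNGTT. Of the 60 guidance genes, 54 were in the table with 85 windows, of which 76.5% held CACCC, 74.1% GGGCGG, 23.5% ACAAT and 1.2% AACNNGTT. A match is a description of the letters and not a bound site.

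Among the EphA receptors, EPHA2, a major receptor for ephrin-A ligands in epithelia, was at 33.4, 29.8 and 28.6 CPM in siNC1 and at 18.0, 18.4 and 20.1 CPM in siKLF5b. The groups did not overlap and the log2FC was -0.71 (SE 0.078, edgeR adjusted p = 2.87e-08), just short of the fold threshold. It was called when the third library of siKLF5b or of siNC1 was left out, with a log2FC of -0.76 in both cases. EPHA8 was called lower (log2FC -1.24, SE 0.44, edgeR adjusted p = 0.0375), with 34, 20 and 25 counts in siNC1 and 10, 7 and 14 in siKLF5b. The call of EPHA8 was lost in DESeq2 and when the first or second library of either group was left out, with log2FC from -0.90 to -1.30. EPHA6 (log2FC 1.46, edgeR adjusted p = 0.0565) and EPHA7 (log2FC 0.72, edgeR adjusted p = 0.0655) were not called. Of the ephrins, EFNB1 had an adjusted p below 0.05 at 37.6 ± 3.29 CPM in siNC1 and 27.1 ± 2.31 in siKLF5b (log2FC -0.47). The 5 ephrin-A genes had log2FC from -0.38 to 0.19 and edgeR adjusted p of 0.279 or more. A gene on the same strand that overlaps EFNA4 and EFNA3 had 171% and 152% as many counts as they had, so the values of these ephrins are uncertain.

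The 4 class 3 semaphorins of chromosome 7 were higher in siKLF5b, 1 of them past both thresholds. SEMA3A, a repellent ligand of NRP1 and A-type plexins, was at 9.93, 10.3 and 11.4 CPM in siNC1 and at 19.2, 19.4 and 19.0 CPM in siKLF5b. The groups did not overlap, and its log2FC of 0.87 (SE 0.11, edgeR adjusted p = 6.68e-07) stayed past both thresholds with any 1 library left out. SEMA3C rose from 251 ± 6.99 to 395 ± 14.7 CPM (log2FC 0.66, SE 0.045, edgeR adjusted p = 1.08e-12). SEMA3E, a ligand of PLXND1, rose from 37.0 ± 1.67 to 58.1 ± 0.828 CPM (log2FC 0.65), and SEMA3D from 15.4 ± 1.45 to 24.6 ± 0.630 CPM (log2FC 0.67). These 3 passed the p threshold and not that on the fold, and 10.3% of all tested genes were higher at that p threshold. SEMA3B (log2FC -0.32, edgeR adjusted p = 0.190) and SEMA3F (log2FC -0.25, edgeR adjusted p = 0.0977), which lie on chromosome 3, did not pass. A gene on the other strand that overlaps SEMA3F had 43.4% as many counts, so the value of SEMA3F is uncertain.

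The 4 semaphorins that rose occupy chromosome 7 of hg38 between 80742538 and 85187056, in the order SEMA3C, SEMA3E, SEMA3A and SEMA3D, all on the minus strand. The table holds 31 genes in this window, of which 7 were tested. Of the 3 tested genes other than semaphorins, PCLO, a presynaptic scaffold gene, rose from 213 to 266 CPM (log2FC 0.32, edgeR adjusted p = 5.76e-05). CACNA2D1, a calcium channel subunit gene, had a log2FC of -0.13 and its antisense gene CACNA2D1-AS1 of 0.01, and neither passed the test.

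None of the plexins or neuropilins tested was higher in siKLF5b at an adjusted p below 0.05. NRP1 was at 26.1, 25.5 and 25.8 CPM in siNC1 and at 18.7, 20.8 and 19.8 in siKLF5b, without overlap (log2FC -0.38, edgeR adjusted p = 0.00137). PLXND1, the receptor of SEMA3E, was at 23.0, 19.2 and 18.6 CPM in siNC1 and at 13.0, 13.4 and 13.2 in siKLF5b (log2FC -0.62, SE 0.11, edgeR adjusted p = 6.23e-05), also without overlap. PLXNB2 (log2FC -0.39) and PLXNA2 (log2FC -0.31) were lower at an adjusted p below 0.05, as were 12.9% of all tested genes. The other 5 tested plexins were not. NRP2 (log2FC -0.35, edgeR adjusted p = 0.251) and PLXNA1 (log2FC -0.02, 95% interval -0.14 to 0.10) did not pass. Among membrane semaphorins, SEMA4B (log2FC -0.44) and SEMA5A (log2FC -0.36) were lower at an adjusted p below 0.05 alone. They were 16.7% of the 12 tested, near the 12.9% of all tested genes, and none passed both thresholds.

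ROBO2, a Slit receptor, was at 2.44, 1.43 and 2.01 CPM in siNC1 and at 4.07, 4.40 and 3.88 in siKLF5b. The groups did not overlap (log2FC 1.06, SE 0.31, edgeR adjusted p = 0.0109), but the call was lost when the second library of either group was left out. ROBO1 (log2FC 0.10, 95% interval -0.18 to 0.37) and SLIT3 (log2FC -0.12, 95% interval -0.30 to 0.06) were not called. Of the 4 neuronal markers, SYT1 was higher in siKLF5b, at 31.3 CPM in siNC1 and 41.4 in siKLF5b, while SNAP25 was at 1.93 and 1.94, RBFOX3 at 1.44 and 1.27 and STMN2 at 0.0331 and 0 CPM. Their sum, nearly all of it SYT1, was at 32.6, 34.4 and 37.3 CPM in siNC1 and 44.9, 44.6 and 44.3 in siKLF5b. The 4 endothelial markers summed to 15.5, 15.6 and 14.8 CPM in siNC1 and to 11.3, 13.3 and 12.5 in siKLF5b, lower as NRP1 and PLXND1 were, and most of this was VWF, with PECAM1 and CDH5 near 0. The part of these markers in the results was not tested.

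**Figure D1:**
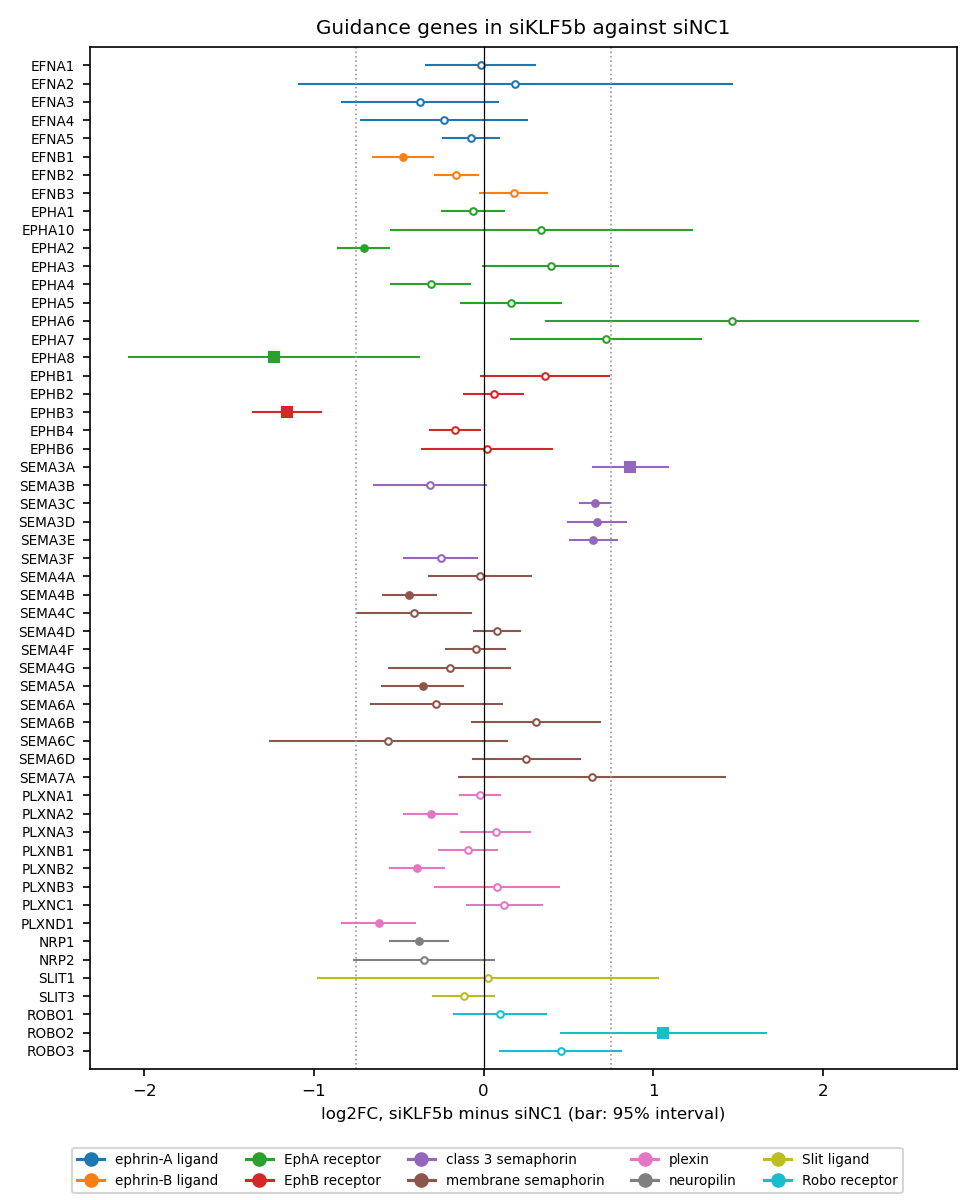
log2FC of the 55 tested guidance genes in siKLF5b against siNC1, with 95% intervals as bars and dotted lines at the fold threshold of 0.75 in each direction (squares, called; filled circles, adjusted p below 0.05 alone; open circles, neither), coloured by role. EPHB3 and EPHA8 are called lower and SEMA3A and ROBO2 higher.

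**Figure D2:**
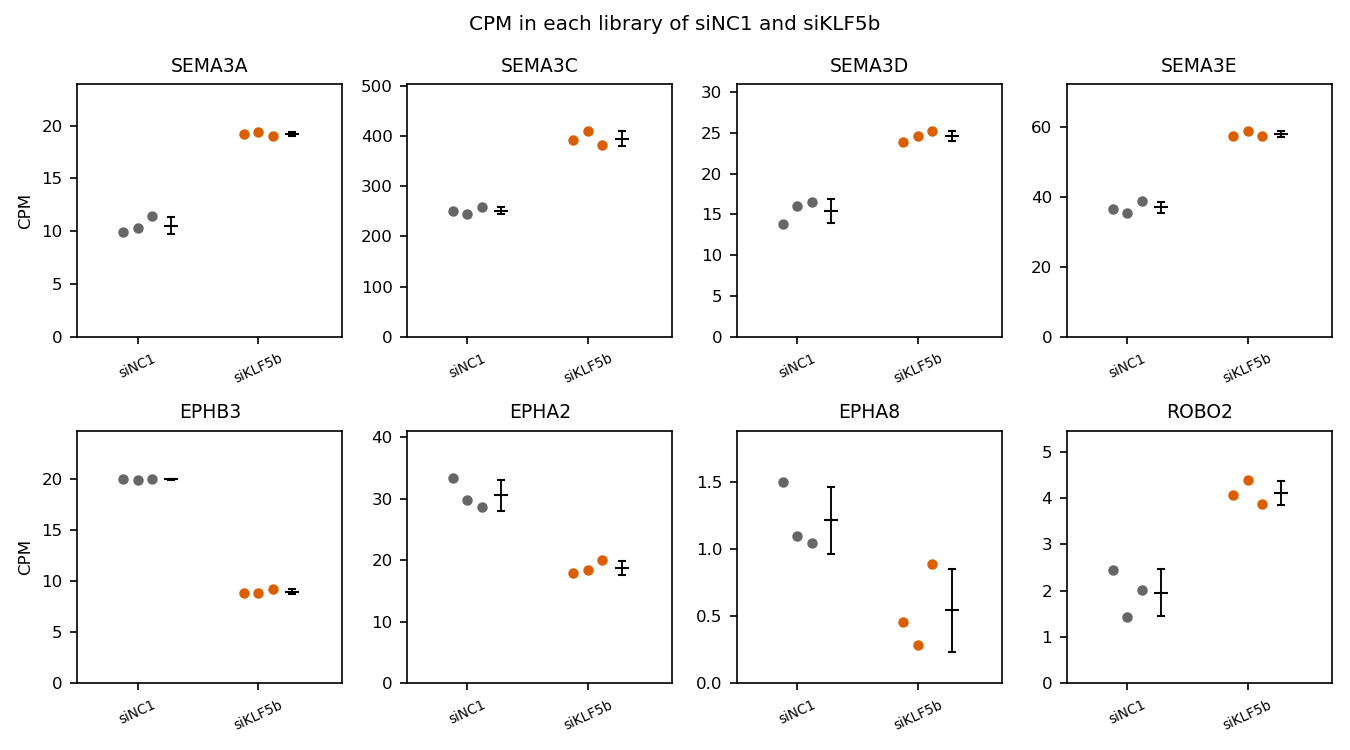
CPM of guidance genes in each library of siNC1 and siKLF5b (points), with the mean and SD of 3 libraries beside them and axes from 0. The 3 siKLF5b libraries of EPHB3 lie below, and those of SEMA3A above, all siNC1 libraries.

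Among the other 3 knockdowns, siTP63b differed from siSOX2b and from siGRHL2a in several members. EFNB1, SLIT3, SEMA3B and the receptor EPHA8, which had few counts, were lower and SEMA3A higher in siTP63b in both comparisons. Both comparisons share the siTP63b libraries. In siTP63b against siSOX2b 5 of the 55 members were called lower and 5 higher (9.09% each), beside 2.82% and 3.88% of all tested genes. At an adjusted p below 0.05 alone 18 were lower and 15 higher, beside 15.4% and 16.4% of all genes. In siTP63b against siGRHL2a 7 members were called lower and 3 higher (12.7% and 5.45%), beside 3.21% and 2.18%, and at an adjusted p below 0.05 alone 15 were lower and 9 higher, beside 13.4% and 13.6%. In siSOX2b against siGRHL2a 2 members were called lower and 2 higher (3.64% each), beside 2.27% and 1.05%, and at an adjusted p below 0.05 alone 13 were lower and 8 higher, beside 12.7% and 11.8%. The members higher than in siGRHL2a include ROBO2, which passed the low-count filter only through siNC1 and siKLF5b, and without it they were 2 in siTP63b and 1 in siSOX2b. EPHA7 passed the filter in the same way, with 0 to 6 counts in the libraries of these 3 knockdowns. It was not called but is among the 55 members in these shares.

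The median log2FC of the members was -0.08, -0.11 and -0.11 in the 3 comparisons, beside 0.00, -0.01 and -0.02 over all tested genes. Their median absolute log2FC was 0.32, 0.34 and 0.28, beside 0.24, 0.21 and 0.20. The summed level of the 11 squamous markers, most of it KRT5, was in the same order as the means of EFNB1 and SLIT3, with 7241 to 8305 CPM in siTP63b, 10154 to 11122 in siSOX2b and 12643 to 13055 in siGRHL2a. Not every marker was in this order: EPCAM was at 219, 217 and 215 CPM and SERPINB5 at 389, 407 and 359.7. CDH1, at 189, 180 and 197 CPM, and SOX2, at 29.5, 8.97 and 20.2, were lowest in siSOX2b. The sum includes the targeted genes TP63 and SOX2. The sum was also lower in siKLF5b, with 6748 to 7806 CPM, than in siNC1, with 10799.9 to 12320.3, while DSG3 was at 134 against 116 CPM and SOX2 at 107 against 73.3. The 4 neuronal markers summed to 50.8 to 55.6 CPM in siTP63b, where SEMA3A was highest, to 44.8 to 48.0 in siSOX2b and to 39.6 to 42.8 in siGRHL2a, which is nearly all SYT1. SNAP25 (1.90, 2.17 and 2.29 CPM) and RBFOX3 (1.37, 1.54 and 1.52) were instead lowest in siTP63b, and STMN2 was at 0 in all 9 libraries. The 4 fibroblast markers, led by COL1A1, summed to 5.03 to 6.77, 8.003 to 9.29 and 7.43 to 8.20 CPM, with DCN at 0 in these libraries. The 4 endothelial markers, led by VWF, summed to 5.57 to 7.31 CPM in siTP63b, 3.52 to 4.86 in siSOX2b and 5.91 to 7.95 in siGRHL2a. This sum, nearly all VWF, was lowest in siSOX2b, as SEMA3E, SEMA3D and ROBO1 were. TEK was at 0.597, 0.332 and 0.338 CPM. CDH5 was instead highest in siSOX2b (0.109, 0.368 and 0.160 CPM) and PECAM1 lowest in siTP63b (0.0464, 0.109 and 0.140 CPM). PECAM1 and CDH5 had no more than 6 and 14 counts in any library. The part of these markers in the results was not tested.

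Of the 3 ephrin-B ligands, EFNB1 was called lower in siTP63b than in both other knockdowns, and EFNB2 and EFNB3 did not pass the threshold on the fold. EFNB1, the ligand of EphB receptors whose promoter is printed above, was at 27.9, 26.6 and 34.6 CPM in siTP63b, at 61.8, 60.6 and 66.4 in siSOX2b and at 59.6, 70.8 and 70.9 in siGRHL2a. The siTP63b libraries lay below all others, and the other groups overlapped each other. The log2FC was -1.08 against siSOX2b (SE 0.085, edgeR adjusted p = 9.24e-12) and -1.18 against siGRHL2a (SE 0.084, edgeR adjusted p = 1.84e-12), the smallest adjusted p of any member in both, and it did not lose its call with any 1 library left out. EFNB2 was at 68.6 ± 2.91 CPM in siTP63b, 84.4 ± 5.09 in siSOX2b and 93.6 ± 4.81 in siGRHL2a (log2FC -0.30 and -0.45 for siTP63b against them). A gene on the other strand that overlaps EFNB2 had 77.2% as many counts, so reads of the pair cannot be told apart without strand. EFNB3 was at 10.4 ± 0.278, 13.4 ± 0.636 and 15.3 ± 0.574 CPM (log2FC -0.37 and -0.55). EFNB2 and EFNB3 were lower at an adjusted p below 0.05 alone in both comparisons, as were 15.4% and 13.4% of all tested genes. EFNB1 lies on the plus strand of chromosome X from 68829021 to 68842160 and overlaps no other gene of the table.

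Of the Eph receptors, EPHB3 was at 9.14, 8.63 and 9.33 CPM in siTP63b, at 9.35, 9.49 and 7.78 in siSOX2b and at 14.0, 16.9 and 15.1 in siGRHL2a. It was lower than in siGRHL2a in both other knockdowns, by a log2FC of -0.76 (SE 0.097, edgeR adjusted p = 2.77e-07) and -0.78 (SE 0.097, edgeR adjusted p = 3.08e-07), while siTP63b and siSOX2b overlapped (log2FC 0.02, 95% interval -0.18 to 0.22). Both calls lay near the fold threshold. That against siTP63b was lost with RLE factors, in DESeq2 and without the second library of siGRHL2a or of siTP63b, down to a log2FC of -0.69, and that against siSOX2b without the second library of siGRHL2a or the third of siSOX2b. EPHA2 was higher in siTP63b (75.0 ± 6.90 CPM) and siSOX2b (71.0 ± 2.79) than in siGRHL2a (48.0 ± 1.06), with a log2FC of 0.65 and 0.57 and adjusted p below 0.05 in both.

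EPHA8 was lower in siTP63b, with 6, 12 and 6 counts against 46, 16 and 26 in siSOX2b and 32, 24 and 35 in siGRHL2a. These are few reads, yet the ranges did not overlap, and its log2FC was -1.87 (edgeR adjusted p = 0.00151) and -1.72 (edgeR adjusted p = 0.00378). EPHA3, an EphA receptor, was at 1.83, 2.75 and 2.14 CPM in siTP63b and at 1.10, 1.21 and 1.11 in siSOX2b (log2FC 0.97, SE 0.22, edgeR adjusted p = 0.00107). EPHA10, a kinase-dead receptor, was higher in siTP63b than in siSOX2b (log2FC 1.33, edgeR adjusted p = 0.0114), with 24, 24 and 20 counts against 14, 7 and 6, and lost its call without the second siSOX2b library. EPHA4 was at 18.3 ± 0.618 CPM in siTP63b, below siSOX2b (log2FC -0.54) and siGRHL2a (log2FC -0.69).

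SEMA3A and SEMA3B, secreted ligands of the same class, went opposite ways. SEMA3A was at 23.3, 27.8 and 21.9 CPM in siTP63b, at 10.6, 10.2 and 13.5 in siSOX2b and at 12.9, 12.6 and 10.6 in siGRHL2a. All siTP63b libraries lay above the rest (log2FC 1.10, SE 0.11, edgeR adjusted p = 9.17e-10 against siSOX2b, and 1.02, SE 0.10, edgeR adjusted p = 4.20e-09 against siGRHL2a). SEMA3B, known as a tumor suppressor candidate of the short arm of chromosome 3, was at 8.94, 7.55 and 11.8 CPM in siTP63b, at 21.7, 21.1 and 25.8 in siSOX2b and at 16.7, 17.6 and 20.9 in siGRHL2a. Here all siTP63b libraries lay below the rest (log2FC -1.28, SE 0.12, edgeR adjusted p = 8.07e-10, and -0.97, SE 0.12, edgeR adjusted p = 2.39e-07).

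The neighbours of SEMA3A on chromosome 7 did not all follow it. SEMA3E was at 39.4 ± 1.84 CPM in siTP63b, 23.1 ± 2.52 in siSOX2b and 28.6 ± 1.49 in siGRHL2a. It was called higher in siTP63b against siSOX2b (log2FC 0.77, SE 0.072, edgeR adjusted p = 4.93e-10), a call lost without the second library of either group, and not against siGRHL2a (log2FC 0.46). SEMA3D was at 29.4 ± 0.472 CPM in siTP63b, 19.8 ± 1.89 in siSOX2b and 31.2 ± 2.05 in siGRHL2a. SEMA3C was highest in siGRHL2a, at 311 ± 5.47 CPM, against 265 ± 6.57 in siTP63b (log2FC -0.23) and 239 ± 5.82 in siSOX2b (log2FC -0.38).

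Among membrane semaphorins, SEMA5A was at 8.94, 8.09 and 9.12 CPM in siTP63b, at 12.2, 11.0 and 11.4 in siSOX2b and at 18.7, 16.6 and 21.5 in siGRHL2a. The 3 groups did not overlap, and siTP63b was below siGRHL2a by a log2FC of -1.12 (SE 0.10, edgeR adjusted p = 5.46e-10). Between siSOX2b and siGRHL2a the log2FC was -0.71 (edgeR adjusted p = 2.96e-06), short of the fold threshold, and it was called without the second siGRHL2a library (log2FC -0.80). A gene on the other strand that overlaps SEMA5A had 54.8% as many counts, and because the sources do not state whether counting used strand, reads of the pair cannot be told apart. SEMA4F was at 18.8, 15.8 and 17.1 CPM in siTP63b and at 26.9, 29.9 and 31.1 in siGRHL2a (log2FC -0.77, SE 0.080, edgeR adjusted p = 6.64e-09), and lost its call without the third siGRHL2a library, the second siTP63b library or the third siTP63b library. SEMA6D, a ligand of PLXNA1, was at 2.75, 2.85 and 2.21 CPM in siSOX2b and 5.11, 4.64 and 4.28 in siGRHL2a (log2FC -0.83, SE 0.15, edgeR adjusted p = 1.15e-04). That call was lost without the third siSOX2b library, and SEMA6D also shares its locus with a gene of 41.8% as many counts on the other strand.

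The neuropilins differed in order. NRP2, a co-receptor of class 3 semaphorins, was at 7.11, 7.21 and 7.05 CPM in siTP63b, at 8.62, 9.28 and 10.5 in siSOX2b and at 4.29, 2.89 and 3.92 in siGRHL2a. No 2 of the groups overlapped. It was called higher in siSOX2b than in siGRHL2a (log2FC 1.35, SE 0.15, edgeR adjusted p = 5.07e-08) and in siTP63b than in siGRHL2a (log2FC 0.94, SE 0.15, edgeR adjusted p = 1.80e-05), with any 1 library left out as well. NRP1 was instead lowest in siTP63b, at 11.2, 10.1 and 9.90 CPM, against 17.1, 17.4 and 17.8 in siSOX2b (log2FC -0.75, SE 0.090, edgeR adjusted p = 8.26e-08, just short of the fold threshold) and 13.1, 11.9 and 14.8 in siGRHL2a (log2FC -0.36). NRP1 was called against siSOX2b with only the 6 libraries compared (log2FC -0.75) and without the first library of either group (log2FC -0.76 and -0.81). No plexin was called in any of the 3 comparisons with all libraries in the fit. PLXNA1 was at 141 ± 9.84, 138 ± 8.96 and 143 ± 2.28 CPM, with log2FC between -0.06 and 0.03, and PLXNB3 had a log2FC of -0.74 in siTP63b against siSOX2b. PLXNB3 was called there without the second siSOX2b, the second siTP63b or the third siTP63b library (log2FC from -0.77 to -0.87), and its antisense gene PLXNB3-AS1 had 98.9% as many counts.

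SLIT3, a secreted ligand of Robo receptors, was at 21.1, 18.6 and 27.1 CPM in siTP63b, at 42.9, 42.3 and 44.2 in siSOX2b and at 54.3, 47.8 and 48.1 in siGRHL2a. All siTP63b libraries lay below the rest. The log2FC was -0.95 (SE 0.087, edgeR adjusted p = 2.79e-10) and -1.17 (SE 0.086, edgeR adjusted p = 3.40e-12), past both thresholds with any 1 library left out. Between siSOX2b and siGRHL2a it was -0.22 (95% interval -0.38 to -0.05, edgeR adjusted p = 0.0538). SLIT3 lies on the minus strand of chromosome 5 from 168661733 to 169301139, where a gene on the other strand had 14.0% as many counts. SLIT1 was called lower in siTP63b than in siSOX2b (log2FC -1.60, edgeR adjusted p = 0.0242) from at most 19 counts in a library, and lost the call when any of 4 libraries was left out (the first or the third of either group) and when only the libraries of the same set were fitted (edgeR adjusted p = 0.0529). It lies within the readthrough gene ARHGAP19-SLIT1, which had 9688% as many counts.

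ROBO1, a receptor of Slit proteins, was at 4.70, 4.42 and 5.20 CPM in siTP63b, at 2.87, 2.55 and 2.96 in siSOX2b and at 4.29, 4.10 and 3.85 in siGRHL2a. It was called higher in siTP63b than in siSOX2b (log2FC 0.78, SE 0.14, edgeR adjusted p = 7.28e-05), a call lost without the second siSOX2b or the third siTP63b library. ROBO2 had 4, 10 and 8 counts in siTP63b, 6, 4 and 12 in siSOX2b and 2, 0 and 4 in siGRHL2a. It passed the low-count filter through the 26 to 107 counts of the siNC1 and siKLF5b libraries, and was not tested when only the libraries of its own set were fitted. Its calls against siGRHL2a (log2FC 1.98 in siTP63b and 2.01 in siSOX2b) therefore rest on the fit with the first set. The siSOX2b and siGRHL2a ranges overlapped, and both calls were lost with halved counts. The call against siTP63b was also lost without the first or the second siGRHL2a library or without the second or the third siTP63b library, and that against siSOX2b without the first or the second siGRHL2a library or without the third siSOX2b library. ROBO3 was not called, with log2FC from -0.10 to 0.15.

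**Figure D3:**
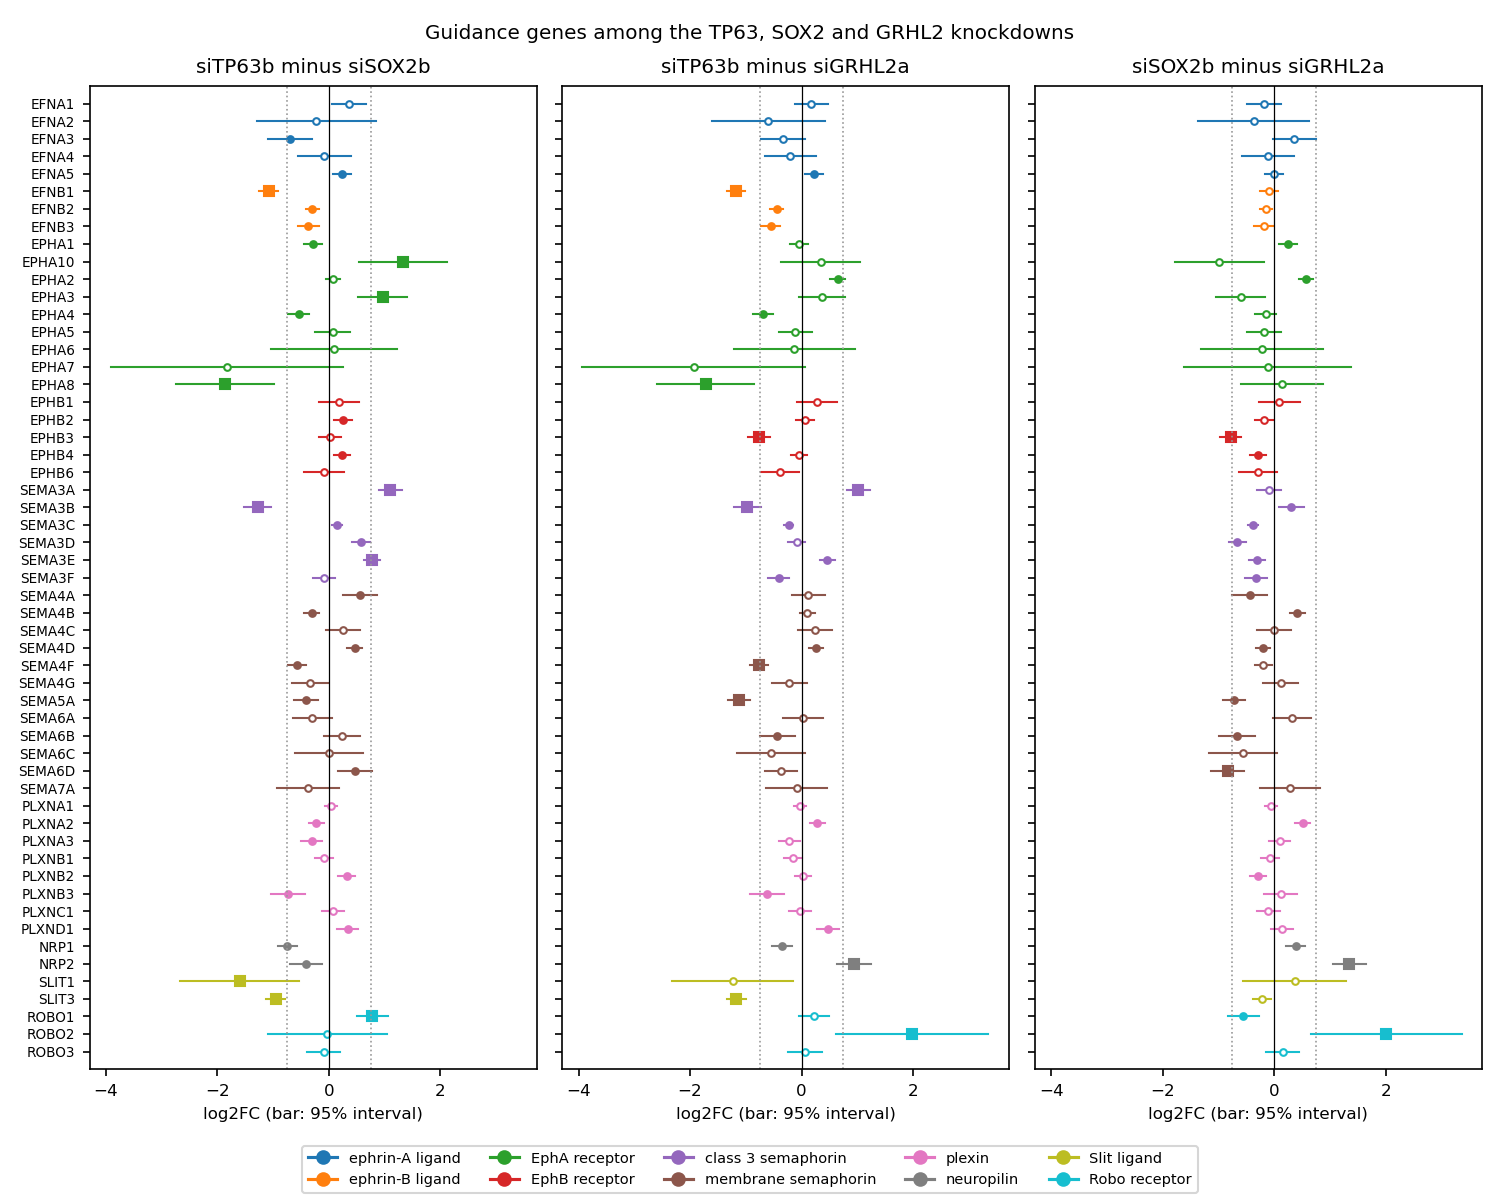
log2FC of the 55 tested guidance genes in siTP63b against siSOX2b, siTP63b against siGRHL2a and siSOX2b against siGRHL2a, with 95% intervals as bars and dotted lines at 0.75 in each direction (squares, called; filled circles, adjusted p below 0.05 alone; open circles, neither), coloured by role. EFNB1, SLIT3, SEMA3B and EPHA8 are called lower and SEMA3A higher in both panels of siTP63b.

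**Figure D4:**
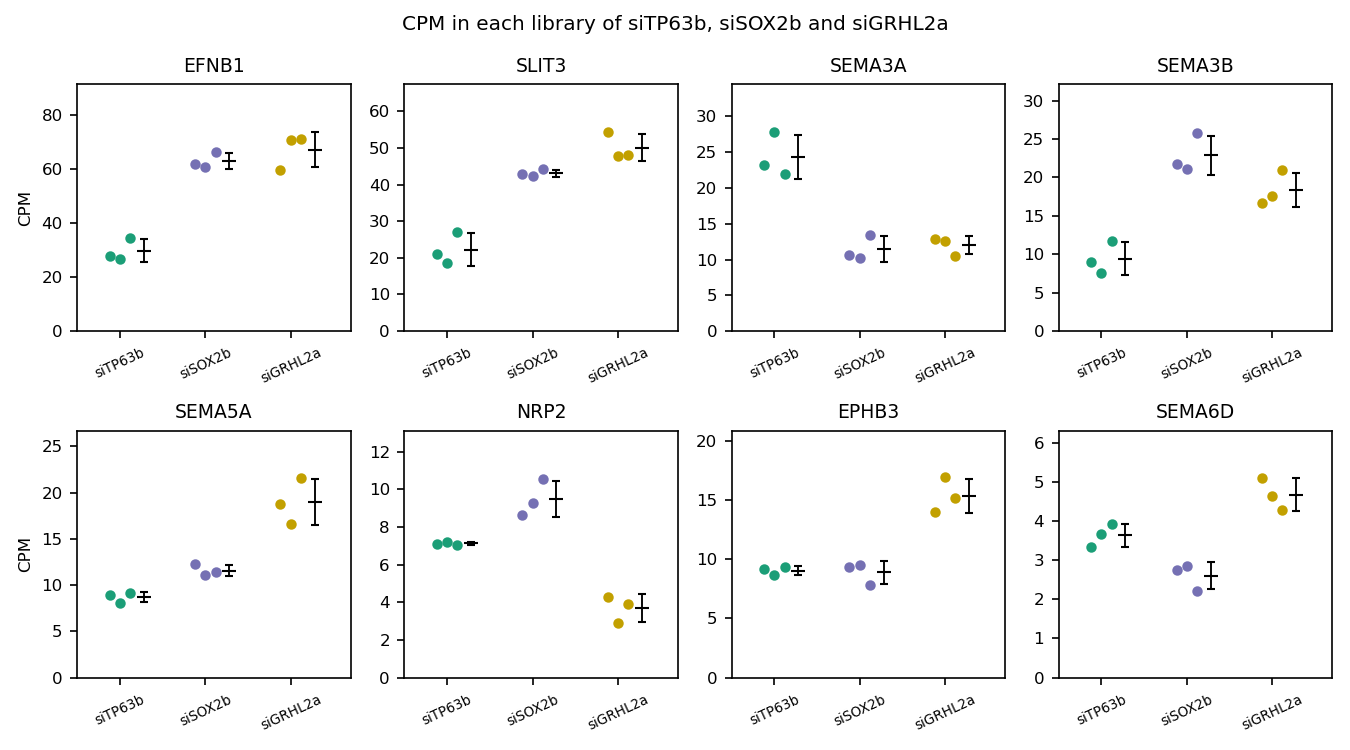
CPM of 8 guidance genes in each library of siTP63b, siSOX2b and siGRHL2a (points), with the mean and SD of 3 libraries beside them and axes from 0. The siTP63b libraries of EFNB1, SLIT3 and SEMA3B lie below, and those of SEMA3A above, all libraries of the other 2 knockdowns.

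A further 70 genes of guidance pathways, netrins and their receptors, co-receptors and signal transducers, were counted beside the members, and 65 of them were tested. In siKLF5b against siNC1, 1 was called lower and 3 higher (1.54% and 4.62%), beside 1.37% and 1.89% of all tested genes. NTN4, a netrin of basement membranes, rose from 18.3 ± 1.21 to 42.5 ± 1.87 CPM (log2FC 1.22, SE 0.069, edgeR adjusted p = 2.01e-14), FLRT3, a ligand of the netrin receptor UNC5B, from 8.76 ± 0.447 to 17.1 ± 1.30 CPM (log2FC 0.97), and the adhesion gene CHL1 from 1.65 ± 0.184 to 3.91 ± 0.543 CPM (log2FC 1.25). The netrin receptor UNC5A fell from 0.639 ± 0.125 to 0.226 ± 0.0790 CPM (log2FC -1.49, edgeR adjusted p = 0.0449).

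In siTP63b against siSOX2b, 1 of the 65 was called lower and 2 higher (1.54% and 3.08%), both shares below the 2.82% and 3.88% of all tested genes. L1CAM, an adhesion molecule and partner of NRP1, was at 41.0 ± 5.96 CPM in siTP63b and 20.7 ± 2.03 in siSOX2b (log2FC 0.98, edgeR adjusted p = 1.42e-09). VAV3, a signal transducer of the list, was higher (log2FC 0.89) and DPYSL4, of the family of semaphorin response mediators, lower (log2FC -0.79). In siTP63b against siGRHL2a, 3 were called lower and 1 higher (4.62% and 1.54%), beside 3.21% and 2.18%. FLRT2, a ligand of UNC5 receptors, was at 37.4 ± 1.88 CPM in siTP63b and 72.7 ± 1.17 in siGRHL2a (log2FC -0.96, edgeR adjusted p = 1.70e-12), and FLRT3 (log2FC -0.81) and DPYSL4 (log2FC -0.95) were lower. RND1, a GTPase that binds plexins, was higher, at 0.816 ± 0.239 against 0.358 ± 0.0529 CPM (log2FC 1.18, SE 0.38, edgeR adjusted p = 0.0211). In siSOX2b against siGRHL2a, 1 was called lower and 2 higher (1.54% and 3.08%), beside 2.27% and 1.05%. VAV3 was at 2.30 ± 0.413 against 4.83 ± 0.782 CPM (log2FC -1.07), and MICAL2, an actin-oxidising enzyme, was at 121 ± 7.57 against 68.9 ± 4.10 CPM (log2FC 0.82, edgeR adjusted p = 3.36e-12). RND1 was at 0.744 ± 0.219 against 0.358 ± 0.0529 CPM (log2FC 1.05, SE 0.39, edgeR adjusted p = 0.0471). The calls of RND1 and UNC5A rest on means below 1 CPM. Calls of single genes of this further list were not followed under the alternatives.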

How the data were processed

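RNA-seq of HCC95 cells was analysed in 5 groups of 3 libraries, grouped by the siRNA named in the sample titles. Per the submitters' notes and methods, the authors used HISAT2 2.2.1 for alignment of the read pairs to hg38, counted unique alignments with featureCounts 2.0.1 on Gencode release 40, and deposited raw counts without normalization. The deposited gene length equals the whole span for all 61544 genes, so introns were counted. Strand, and counting of reads or fragments, are not given in the sources used here. All 15 count columns were matched by name.

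edgeR 4.0.16 in R 4.3.3 was run on the counts (TMM factors, filterByExpr, one quasi-likelihood fit of 15 libraries, Benjamini-Hochberg adjustment over 25108 genes). SE was taken as the absolute log2FC over the square root of F, and 95% intervals as normal intervals. The steps were tested on simulated counts. Exon lengths came from Gencode release 44, which held all 60 members, 58 with the same span, and promoters from RefSeq.

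The members, gene lists and tests were chosen with earlier results of these data known. Members called in a comparison, the leading member of each role by CPM and per kb and the partners of called genes are named. The smallest adjusted p decided which are given in full. From the further pathway list, the genes called in a comparison are named. Alternatives were RLE and upper-quartile factors, other low-count filters, a replicate block, fewer libraries, DESeq2 1.42.0, halved counts, other fold thresholds and each library left out.

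Same-numbered libraries did not deviate together (correlations from -0.031 to 0.034). Libraries within each group were further apart than sampling noise. The chi-square per gene was 2.04 to 4.35 within siNC1 and siKLF5b and 4.96 to 8.13 within the other 3 groups. The fit of all 15 libraries shared 1 estimate of the spread over both sets.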

Additional observations from a re-analysis of the deposited data

How the results depend on the processing

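The counts of members moved where few members were called. With no threshold on log2FC, the members lower and higher were 10 and 5 in siKLF5b against siNC1, 18 and 15 in siTP63b against siSOX2b, 15 and 9 in siTP63b against siGRHL2a, and 13 and 8 in siSOX2b against siGRHL2a, and over all tested genes 3251 and 2577, 3866 and 4111, 3375 and 3417, and 3185 and 2966. With an absolute log2FC above 1, all tested genes gave 165 and 204, 416 and 589, 496 and 330, and 324 and 161, members higher fell to 1 in siKLF5b against siNC1 and 2 in siTP63b against siSOX2b, and members lower to 4 in siTP63b against siGRHL2a and 0 in siSOX2b against siGRHL2a. With at least 10 counts in every library, members lower were 1 in siKLF5b against siNC1 and 3 in siTP63b against siSOX2b, members higher 1 in siKLF5b against siNC1 and 1 in siSOX2b against siGRHL2a, and all genes higher 620, 355 and 154 in the last 3 comparisons, with 470 and 360 lower in siTP63b against siSOX2b and siSOX2b against siGRHL2a. DESeq2 called 1 member lower in siKLF5b against siNC1. Members higher in siSOX2b against siGRHL2a were 1 with halved counts, with only the 6 libraries compared and with only the libraries of that set.

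With each library left out in turn, members lower and higher ranged from 1 to 3 and 1 to 2 in siKLF5b against siNC1, from 4 to 6 and 2 to 5 in siTP63b against siSOX2b (2 higher without the second siSOX2b library), from 6 to 7 and 2 to 3 in siTP63b against siGRHL2a, and from 1 to 3 and 1 to 2 in siSOX2b against siGRHL2a. The log2FC of GRHL2 in siSOX2b against siGRHL2a had an adjusted p above 0.05 at 0.1361 with no low-count filter, 0.1452 with only the 6 libraries, 0.1386 with only that set and 0.1179 with upper-quartile factors, and ranged from 0.1125 to 0.1783 with a library left out, with the p threshold missed in 3 of these 6 fits. Of the other values per gene, 817 were on the same side of the thresholds, 6 lost and 1 gained a call, and with a library left out 518 were on the same side, 30 lost and 10 gained a call. No log2FC followed changed sign under any alternative run. The replicate block gave the same counts of members, such as 5 lower and 5 higher in siTP63b against siSOX2b, moved no count over all genes by more than 1.5 times, and is given here only, since libraries share a number and no more.

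EPHA8, EPHA10, SLIT1 and, in the second set, ROBO2 rest on few reads. Calls of EPHA10, SLIT1 and ROBO2, that of EPHA8 in siKLF5b, and those near the fold threshold (EPHB3 within the second set, SEMA4F, SEMA6D, SEMA3E, ROBO1) depend on single libraries. In the second set most counts are even, and p-values there would be too small if both mates of a pair were counted, although halving the counts changed few calls.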

Other observations

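Some guidance genes differed most between the 2 sets of libraries, where set and knockdown cannot be told apart and no test was made. EPHA7, an EphA receptor, had 56 to 115 counts in the 6 libraries of siNC1 and siKLF5b and 0 to 6 counts in the 9 of the other knockdowns. ROBO2 had 26 to 107 and 0 to 12 counts in the same libraries. PLXNA1 was at 59.2 ± 2.92 CPM (SD, n = 3) in siNC1 and 58.5 ± 2.43 in siKLF5b, and at 141 ± 9.84, 138 ± 8.96 and 143 ± 2.28 in siTP63b, siSOX2b and siGRHL2a. EFNB2 was at 40.5 ± 2.41 and 36.3 ± 0.825 CPM in the first set and between 68.6 ± 2.91 and 93.6 ± 4.81 in the second. These 4 genes were chosen after their values were seen.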
